A study of Drosophila melanogaster with 10 samples.

Results

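The 8 subunit genes of the cytosolic chaperonin CCT, named CCT1 to CCT8, were described in head RNA of Drosophila melanogaster strains that exchange whole chromosomes. The members were all probe sets annotated to a single gene among these 8, with no filter on dim signal. There were 9 of them among the 14010 probe sets of the array: 1 for each of CCT1, CCT3, CCT4, CCT5, CCT6, CCT7 and CCT8, and 2 for CCT2. All 9 passed the filter on dim signal used for the tests. The family was chosen by measured values: it was taken up because a CCT2 probe set had been called higher with the X chromosome from strain Z30 in an earlier fit of the same arrays. The difference of that probe set between X chromosomes, and between the parents that carry them, is therefore given below as a description without a test.

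Heads were taken from nonvirgin females aged 3 to 5 days, with 100 to 200 heads per RNA sample. The strain Z30 had 2 arrays. The chromosome substitution lines ZMM, ZMZ, ZZM, MMZ, MZM and MZZ had 1 array each, and the strain Fr had 2. The 3 letters of a line give the source of its first (X), its second and the third chromosome, with Z for Z30 and M for Fr, so that for every chromosome 5 arrays carried the Z30 copy and 5 the Fr copy. The labels do not give the source of the fourth chromosome or the mitochondria, nor whether both arrays of a parent stem from different cultures. P-values thus measure only how far these arrays vary, and part of that may be technical.

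CCT, also called TRiC, is a chaperonin built as stacked rings in which each subunit type holds a fixed place. It encloses newly made proteins and folds them with energy from ATP, and actin and tubulin are its best known substrates. In yeast and mammals CCT2 sits between CCT4 and CCT5 in the ring, and CCT2, CCT4, CCT5 and CCT7 bind ATP more strongly than the others. The complex is needed wherever cytoskeleton is made, in neurons and photoreceptors as in other cells.

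Signals were analysed as deposited, on a linear scale on which every array had the same 2% trimmed mean of about 500.1. Arrays Z30 1 and Fr 1 stood apart, with highest signals of 28895 and 26039 against 46285 to 59815 on the other 8, and are called the smaller array batch. The MZM array had a median rank correlation with the other arrays of 0.905, against 0.929 to 0.945 for the rest of the larger batch. On the arrays MZM, Fr 1 and Z30 1 the deviation of a gene from its own mean fell with gene length (Spearman rho -0.42, -0.36 and -0.24 over 7449 probe sets). Of the marker genes measured, Lsp2, a larval serum protein gene on the fat body list, was the only one called in limma without the block, with the third chromosome from Z30 (log2 difference -4.28 ± 0.49, adjusted p = 0.00640). Photoreceptor markers were bright on every array, with Arr1 at 20768 or more and trp at 4407 or more. The ovary marker osk lay under the floor of 38.8 set for log values on 5 arrays, and Cp36, a chorion gene, had 74.9 to 560. In such whole-head RNA, fewer cells of a type and less RNA per cell cannot be told apart.

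CCT2 lies on the X chromosome and encodes the beta subunit. Its probe set 151740_at, here CCT2a, had signals of 2872 and 3380 on the Z30 arrays, 2915 on ZMM, 1379 on ZMZ and 2132 on ZZM. With the X chromosome from Fr it had 807 on MMZ, 808 on MZM, 548 on MZZ, and 994 and 816 on the Fr arrays. All 5 arrays with the Z30 chromosome lay above all 5 with the Fr one, and ZMZ was the lowest with the Z30 chromosome. The means were 2535 ± 786 with the X chromosome from Z30 and 794 ± 159 with that from Fr (SD, n = 5 each). The additive model of the 3 chromosome origins gave a log2 difference of 1.67 ± 0.27 (SE), or 3.17-fold. The parents alone differed by 1.79 ± 0.29 log2 units (3126 ± 360 in Z30 and 905 ± 126 in Fr, SD, n = 2 each), by 1.53 within the smaller array batch and 2.05 within the larger one. The 6 lines alone gave 1.09, a smaller value than all 10 arrays. Among the lines the 3 X chromosomes from Z30 spanned 1379 to 2915, so the level also varied under the same X origin.

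The other CCT2 probe set, 142977_at, here CCT2b, had a smaller difference of the same sign. It had 654 and 742 on the Z30 arrays, 730 on ZMM, 641 on ZMZ and 684 on ZZM. With the Fr chromosome it had 688 on MMZ, 532 on MZM, 530 on MZZ, and 526 and 598 on the Fr arrays. The groups overlapped through MMZ alone, the other 4 arrays with the Fr chromosome lying under all 5 with the Z30 one. Its fitted log2 difference was 0.28 ± 0.18 (SE), with a 95% interval of -0.11 to 0.67, and it was not called (limma adjusted p = 0.999). In the fit without the filter on dim signal the interval was 0.039 to 0.52, again without a call after adjustment. The unadjusted limma p there was 0.0284, and 439 of 13966 probe sets had one under 0.05. The fitted X-origin differences of the 2 probe sets of this gene were thus 1.67 and 0.28, and whether they differ was not tested. The stretches of transcript that they probe were not analysed here.

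**Figure D1:**
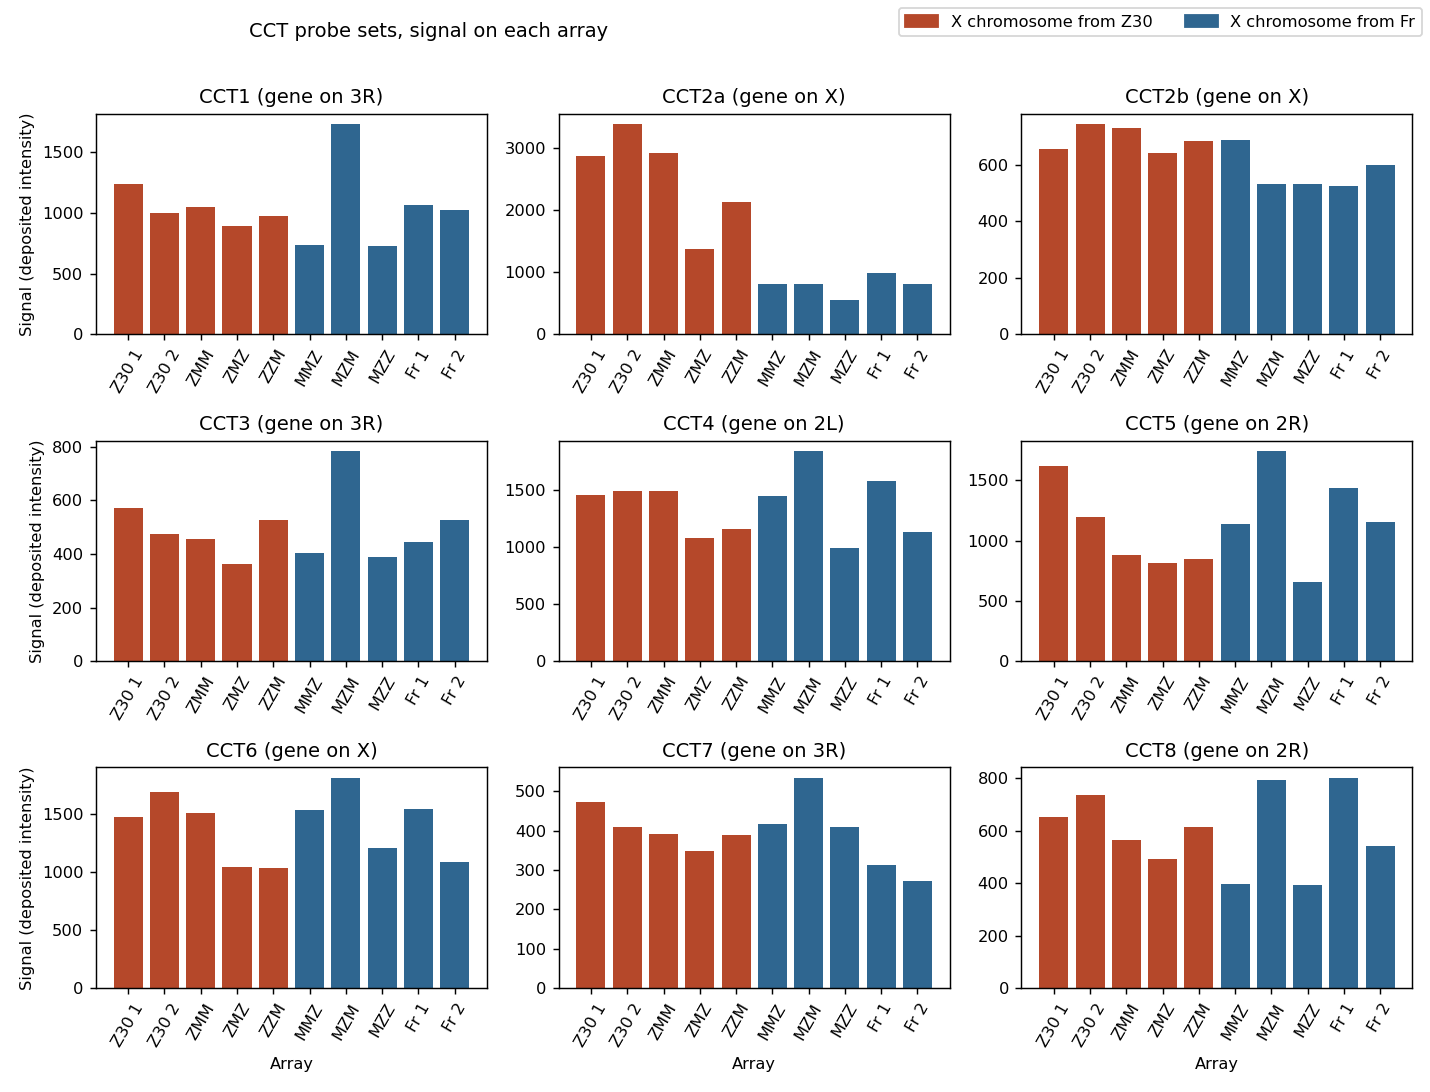
Deposited signal (linear scale, y axis) of the 9 CCT probe sets on each of the 10 arrays (x axis, 1 bar per array), with the 5 arrays that carry the X chromosome from Z30 on the left and the 5 that carry it from Fr on the right. In CCT2a every array with the Z30 chromosome, 1379 or more, stands above every array with the Fr one, 994 or less, while in 6 other panels the tallest bar is MZM.

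No other subunit was called with X origin. With the X chromosome from Z30, limma called 0 of the 8 CCT probe sets other than CCT2a, against 0.0597% of the 8379 tested, and 0 of the 8 had an unadjusted p under 0.05. With the array batch as a block 0 of the 8 were called, against 0.107% of all probe sets. The call that led to this family was that of CCT2a in the fit with the block, and nothing is read from it here. The groups of all 8 overlapped. Over all probe sets 0.334% were separate with Z30 above and 0.609% with Z30 below, 0.943% in all. CCT6, the zeta subunit and the only other one encoded on X, had a log2 difference of -0.12 with a 95% interval of -0.62 to 0.38. CCT6 had 1469 and 1688 on the Z30 arrays, 1502 on ZMM, 1038 on ZMZ and 1036 on ZZM. It had 1534 on MMZ, 1806 on MZM, 1203 on MZZ, and 1543 and 1080 on the Fr arrays, so the groups overlapped.

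The ring neighbours of CCT2 were not called with X origin. CCT4, the delta subunit encoded on 2L, had 1332 ± 198 with the X chromosome from Z30 and 1395 ± 341 with that from Fr (SD, n = 5 each), a fitted difference of -0.03 with an interval of -0.51 to 0.46. CCT5, the epsilon subunit on 2R, had 1071 ± 341 against 1226 ± 402 (-0.17, interval -0.84 to 0.49). CCT7, the eta subunit on 3R, had 403 ± 45.4 against 390 ± 102, with an interval of -0.48 to 0.48. Among the more weakly ATP-binding subunits, CCT1 (alpha, 3R) had an interval of -0.43 to 0.55, CCT3 (gamma, 3R) one of -0.52 to 0.40 and CCT8 (theta, 2R) one of -0.37 to 0.69. Over the 8 probe sets other than CCT2a, 3 differences were positive and 5 negative, and their median was -0.015 log2 units, against 0.0018 over all probe sets. The widest reach of these intervals from 0 was -0.84, for CCT5. The 6 lines alone gave larger negative differences, of -0.54 for CCT4, -0.76 for CCT5 and -0.68 for CCT6. None of these was called in limma (adjusted p = 0.562, 0.562 and 0.557), though CCT6 had an unadjusted p under 0.05, as did 736 of the 8379 probe sets. Without MZZ the CCT5 difference was -0.61, again not called (limma adjusted p = 0.819).

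**Figure D2:**
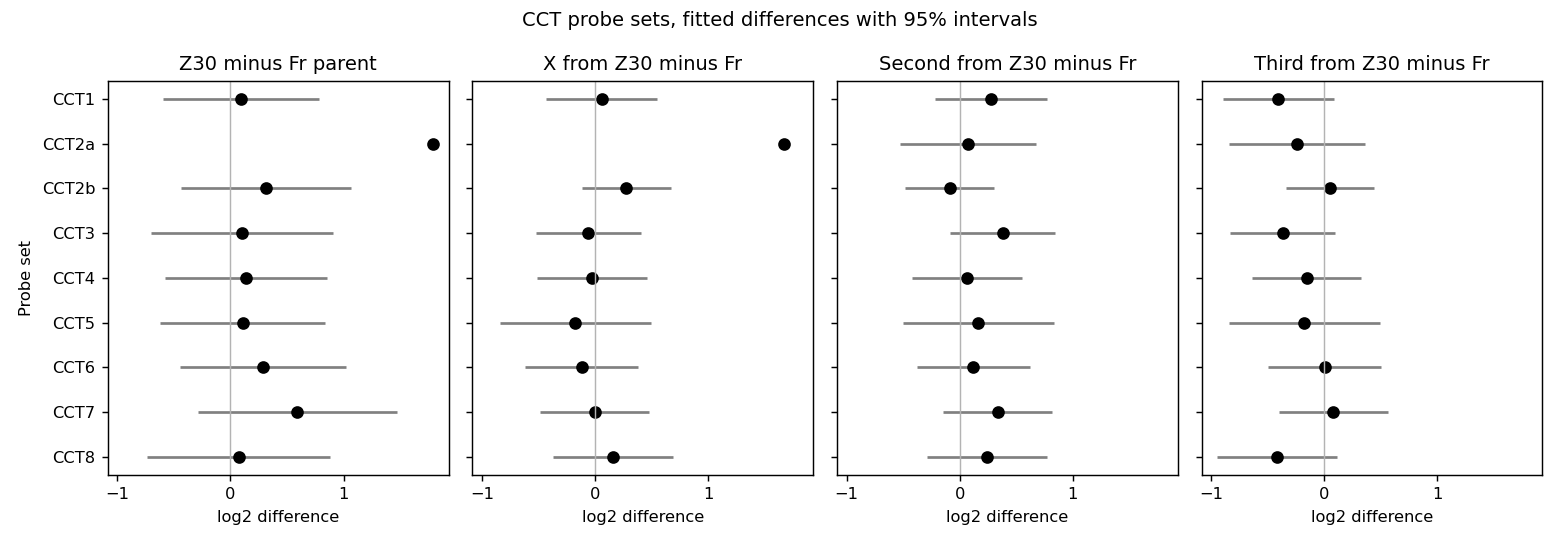
Fitted log2 differences (x axis) of the 9 CCT probe sets (y axis) between the parents and for the origin of the X, the second and the third chromosome, each as Z30 minus Fr. Points are limma estimates and lines their 95% intervals, from 4 arrays in the first panel and 10 in the others. CCT2a stands at 1.79 and 1.67 in the first and second panels, drawn without intervals because this difference chose the family, and all intervals drawn include 0.

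Between the parents, CCT7 was the other subunit whose arrays separated by strain. It had 474 and 410 on the Z30 arrays, against 314 and 273 on the Fr arrays. The log2 difference was 0.59 ± 0.37 (SE), the same 0.59 within each batch, and it was not called (limma adjusted p = 0.9998, or 0.323 with the array batch as a block). Among the lines, CCT7 did not separate by the third chromosome, which carries its gene. Those with the Z30 copy of it had 418 on MMZ, 411 on MZZ and 349 on ZMZ, and those with the Fr copy had 534 on MZM, 392 on ZMM and 389 on ZZM. The 2 Fr parent arrays were thus the lowest of all 10, and the 6 lines lay above them with either copy.

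Of the 8 CCT probe sets other than CCT2a, 0 were called between the parents in limma, against 0.0358% of all probe sets, with no unadjusted p under 0.05 among them. With the array batch as a block 0 of the 8 were called, against 6.58%. For 2 of the 8, CCT2b and CCT7, both Z30 arrays lay above both Fr arrays, and for 0 they lay below. Over all probe sets these shares were 14.9% above and 13.7% below, or 28.5% in either direction. CCT2b belongs to the same gene as CCT2a, which is not counted here because it chose the family. All 8 fitted differences were positive, with a median of 0.12 log2 units, against 4339 of 8379 probe sets and a median of 0.017. The other 6, those apart from CCT2b and CCT7, ran from 0.074 for CCT8 to 0.29 for CCT6. CCT6 differed by -0.07 within the smaller batch and by 0.64 within the larger one, and CCT8 by -0.30 and 0.44, so their parental direction was not the same in the 2 batches. CCT3 and CCT4 also had opposite signs, with 0.36 and -0.15 for CCT3 and -0.12 and 0.40 for CCT4, and CCT1 had 0.22 and -0.03.

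The second chromosome carries CCT4, CCT5 and CCT8, and none of them was called with its origin. Their log2 differences with it from Z30 were 0.06 ± 0.22, 0.16 ± 0.30 and 0.24 ± 0.24 (SE). In limma 0 of the 9 were called, against 0.0358% of all probe sets, and 0 with the batch block, against 0.155%. No CCT probe set reached an unadjusted p under 0.05. The groups of every CCT probe set overlapped, as did those of all but 1.11% of the probe sets tested (0.656% with Z30 above and 0.454% below). The largest difference was that of CCT3, a gene of the third chromosome, at 0.38 ± 0.21 (549 ± 148 with the second chromosome from Z30 and 439 ± 61.3 with that from Fr, SD, n = 5 each). Without MZM it was 0.22. The median of the 9 was 0.16, against -0.016 over all probe sets. In the 6 lines alone the differences of CCT4, CCT5 and CCT6 were -0.45, -0.42 and -0.44, opposite to those from 10 arrays.

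The third chromosome carries CCT1, CCT3 and CCT7. With it from Z30, CCT1 and CCT3 had log2 differences of -0.41 ± 0.22 and -0.37 ± 0.21 (SE), and CCT8, a gene of the second chromosome, had -0.42 ± 0.24. CCT1 averaged 920 ± 211 with the Z30 chromosome and 1169 ± 316 with the Fr one (SD, n = 5 each). CCT8 averaged 534 ± 155 and 662 ± 125. In limma 0 of the 9 were called, against 0.0955% of all probe sets, and 0 with the batch block, against 0.406%. An unadjusted p under 0.05 was found for 0 of the 9. All groups overlapped, against 1.58% of probe sets without overlap (0.585% with Z30 above and 0.991% below). In the 6 lines alone all 9 differences were negative, with a median of -0.67, against 3929 of 8379 negative and a median of 0.036 over all probe sets. There 0 of the 9 were called, and 2, CCT2a (-0.82) and CCT4 (-0.67), had an unadjusted p under 0.05, as did 842 of all 8379. Without MZM, the array with the highest CCT1 and CCT3 signals, the 3 differences were -0.22 for CCT1, -0.25 for CCT3 and -0.34 for CCT8. CCT7 had 0.08 ± 0.22.

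Whether other subunits followed CCT2 from array to array was measured by correlating log2 signals with CCT2a over the 10 arrays. The parents enter with 2 arrays each, so these are not fully independent samples. CCT2b had the closest relation, with Pearson r = 0.78 (permutation p = 0.0126) and Spearman rho = 0.65 (permutation p = 0.0482, two-sided, 100000 permutations). Adjusted over the 8 relations with CCT2a these became 0.101 and 0.385, above the threshold of 0.05. After removal of each batch's mean, r was 0.86 (permutation p = 0.0028, adjusted 0.0224). This permutation ran over all 10 arrays, although the 2 centred values of the smaller batch are equal and opposite. Its p-value is therefore only approximate. Within the 8 arrays of the larger batch r was 0.84 (exact permutation p = 0.0126, adjusted 0.101), and without Z30 2 and ZMM, the 2 arrays farthest from the CCT2a median, it was 0.62 (exact permutation p = 0.113).

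The other 7 subunits had r from 0.093 for CCT3 and CCT5 to 0.41 for CCT8, with rho from -0.15 for CCT7 to 0.44 for CCT8. None passed, the smallest permutation p among them being 0.234 for CCT8 (adjusted p = 0.810), or 0.204 by rho. Within the larger batch r ranged from -0.039 for CCT5 to 0.51 for CCT8, and without the 2 farthest arrays from -0.17 for CCT6 to 0.36 for CCT8. Of all 8378 other probe sets tested, 9.80% had an r with CCT2a at least as high as that of CCT8, 24.6% as that of CCT4 and 40.6% as that of CCT5. The corresponding share for CCT2b was 0.334%. Leaving out MZM brought the r of the 7 subunits to values between 0.29 for CCT5 and 0.68 for CCT1, and again none passed after adjustment.

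The 5 genes most like CCT2a over the 10 arrays, outside the CCT family, all lie on X. SrpRalpha, which encodes the receptor subunit for signal recognition particles at the endoplasmic reticulum, had r = 0.92. It had signals of 1855 to 4519 with the X chromosome from Z30 and 848 to 1663 with that from Fr. Rnp4F, CG12155, CG14615 and CG15209 had r of 0.89, 0.88, 0.88 and 0.88. CG15209 was called with X origin in limma (log2 difference 1.16, adjusted p = 0.0203), while SrpRalpha had 1.34 (adjusted p = 0.446), and the other 3 had 0.41 to 0.64 without a call. These genes were picked for their likeness, so the values are a description without support for any relation.

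The genes next to CCT2 on X were not called with X origin. Of the 3 measured genes on either side by gene order, APC4, CG32708 and CG6999 had log2 differences with X origin of 0.26, 0.13 and 0.15, and CG7766, Bx42 and AP-1gamma had -0.47, -0.19 and 0.013. None was called in limma, against 0.0597% of the 8379 probe sets tested. None of the 6 had groups without overlap, against 0.943% of those probe sets. At such shares these counts are no result about the neighbours. CG7766, which adjoins CCT2 in that order, had 980 to 1381 with the X chromosome from Z30 and 1258 to 1926 with that from Fr.

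**Figure D3:**
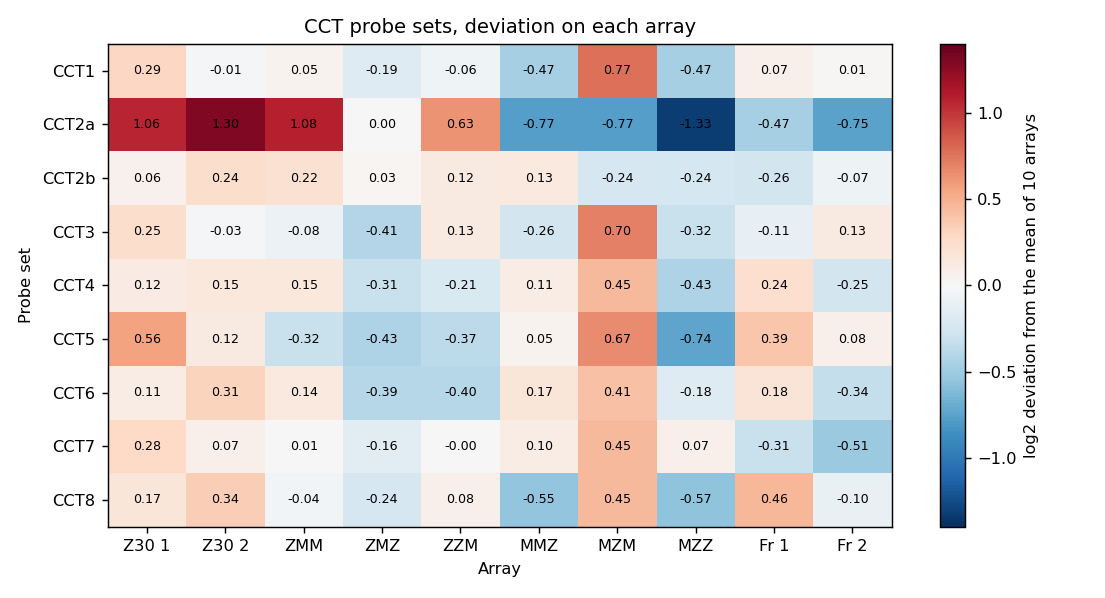
Log2 deviation of each CCT probe set (rows) on each array (columns) from its mean over the 10 arrays, red for higher and blue for lower, with arrays that carry the X chromosome from Z30 on the left. The CCT2a row splits at the change of X origin, while most other rows are red on MZM and blue on MZZ and ZMZ.

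Several subunits other than CCT2 were high or low together on particular arrays, MZM above all. The highest signal lay on MZM for CCT1 (1731), CCT3 (784), CCT4 (1835), CCT5 (1742), CCT6 (1806) and CCT7 (534), that is for 6 of the 8 probe sets other than CCT2a. CCT8, with 794 on MZM, was highest on Fr 1 (800.1). The lowest signals of CCT1 (732), CCT4 (993), CCT5 (658) and CCT8 (392) lay on MZZ. The median deviation of the 8 was 0.45 log2 units on MZM, 0.21 on Z30 1 and 0.12 on Fr 1, against -0.37 on MZZ and -0.28 on ZMZ. On MZM 7 of 8 were above their mean and on MZZ 1 of 8 was. By their letters MZM and MZZ differ in the third chromosome, and each is a single array. Marker genes of 2 cell types were low on MZM, Z30 1 and Fr 1. The median log2 deviation of the neuron markers (4 of 6 measured) was -1.05, -1.01 and -1.14 there, and that of the muscle markers (3 of 5 measured) -0.84, -1.25 and -1.005. The germ line and follicle cell markers (4 of 5 measured) had 0.58, 0.00033 and 0.63, and the other 4 lists had no common sign on these arrays. The neuron markers elav, brp and para did not pass the filter on dim signal, so the neuron median rests largely on dim probe sets. They lay under the floor on 1, 4 and 1 arrays, while nSyb passed and had 555 or more on every array. Of the germ line and follicle cell markers, osk and Vm26Aa did not pass the filter either. Over the arrays with the X chromosome from Z30 the summed neuron marker signal ran from 1148 to 3483, and over those with it from Fr from 800 to 3112. The part of these cell types in the shared CCT pattern was not tested.

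Their spread was moderate. The highest signal over the lowest was 6.17 for CCT2a, against 1.41 for CCT2b and 2.65 for CCT5 at the ends of the range of the other 8. The SD of log2 signal over arrays was 0.95 for CCT2a, exceeded or equalled by 6.28% of the probe sets tested. It was 0.19 for CCT2b, exceeded or equalled by 96.5%, and 0.46 for CCT5, by 44.2%. The median over all probe sets was 0.43.

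**Figure D4:**
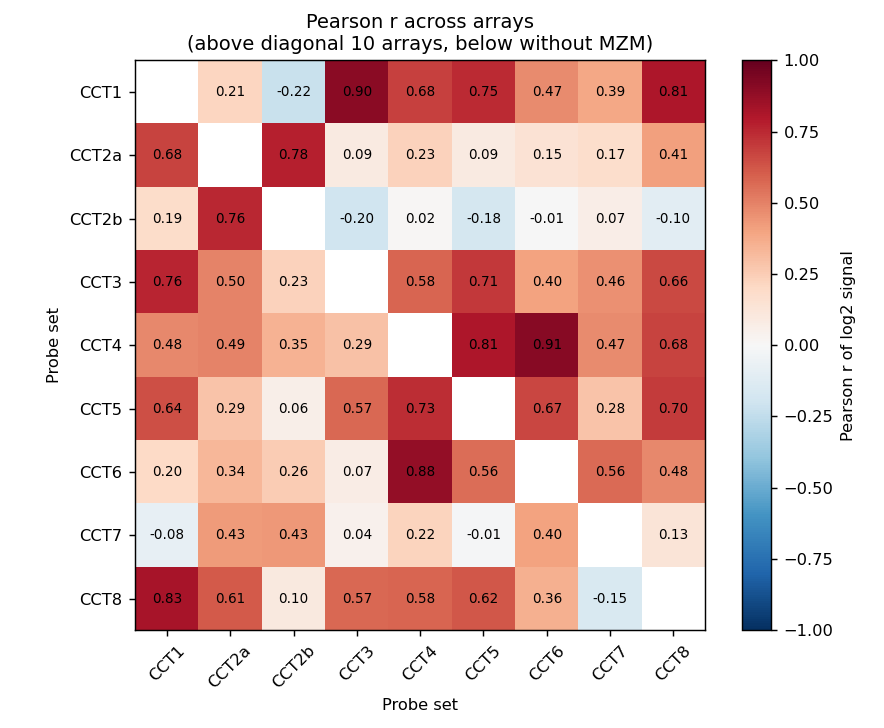
Pearson r of log2 signal for every pair of CCT probe sets, over all 10 arrays above the diagonal and without MZM (9 arrays) below it, with red for positive and blue for negative r. CCT4 with CCT6 and CCT1 with CCT8 are at 0.81 or more in both parts, while CCT7 loses most of its relation to CCT1, CCT3 and CCT5 without MZM.

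All 36 pairs of probe sets were correlated across arrays after the values had been seen. Among the 21 pairs of the 7 subunits other than CCT2, r was positive for all 21, with a median of 0.66 and a range of 0.13 to 0.91. Of these, 3 passed adjustment over the 36 pairs by Pearson r: CCT4 with CCT6 (r = 0.91, permutation p = 8.6e-04, adjusted p = 0.0182), CCT1 with CCT3 (r = 0.90, adjusted p = 0.0182) and CCT1 with CCT8 (r = 0.81, adjusted p = 0.0361). Their rho was 0.81, 0.73 and 0.82, and 0 pairs passed by rho (smallest adjusted p for these 3 pairs 0.0522). High r was common on these arrays. Among 8378 probe sets the top 5% by r began at 0.68 for CCT1 and CCT4 and at 0.63 for CCT3 and CCT6. It began at 0.75 for CCT5, 0.51 for CCT7 and 0.72 for CCT8. Other CCT probe sets in it numbered 4 for CCT1, 3 each for CCT3 and CCT4, 2 for CCT6 and 1 each for CCT5, CCT7 and CCT8. Without MZM 18 of the 21 pairs were positive, the median was 0.48 and 0 passed. The 8 pairs with CCT2a then had a median of 0.50, all 8 positive, about the same as that of the 21. In the larger batch without MZM the median was 0.50 for the pairs with CCT2a, 0.55 for the other 7 pairs with CCT2b and 0.38 for the 21, of which 15 were positive. Over both batches without MZM, CCT4 with CCT6 had r = 0.88 (exact permutation p = 0.00665, adjusted p = 0.134), CCT1 with CCT8 0.83 and CCT1 with CCT3 0.76. In the larger batch without MZM these pairs had 0.86, 0.86 and 0.70. Within the larger batch the 3 pairs had 0.90, 0.86 and 0.91, with exact adjusted p of 0.0905, 0.0563 and 0.0905.

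This shared pattern moved with the gene-length trend of the arrays. Across the 10 arrays the median deviation of the 8 probe sets correlated with each array's rho between deviation and gene length (r = -0.82, permutation p = 0.00192, and rho = -0.88, permutation p = 0.00159, adjusted over 2 relations 0.00384 and 0.00318). Without MZM and Fr 1, the 2 arrays farthest from the median of that trend, r was -0.75 (exact permutation p = 0.0338), within the larger batch -0.86 (exact permutation p = 0.00258), and within the larger batch without MZM -0.67 (exact permutation p = 0.0891, n = 7). The CCT genes span 2147 to 4671 bases in the Release 6 annotation, with a median of 2487, against 2965 for the tested genes. CCT2a had no detectable relation of this kind (r = -0.036, permutation p = 0.918). The relation to the length trend was not among the planned tests, and how closely other groups of genes follow that trend was not tested. The part of the length trend in the shared pattern was not tested.

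**Figure D5:**
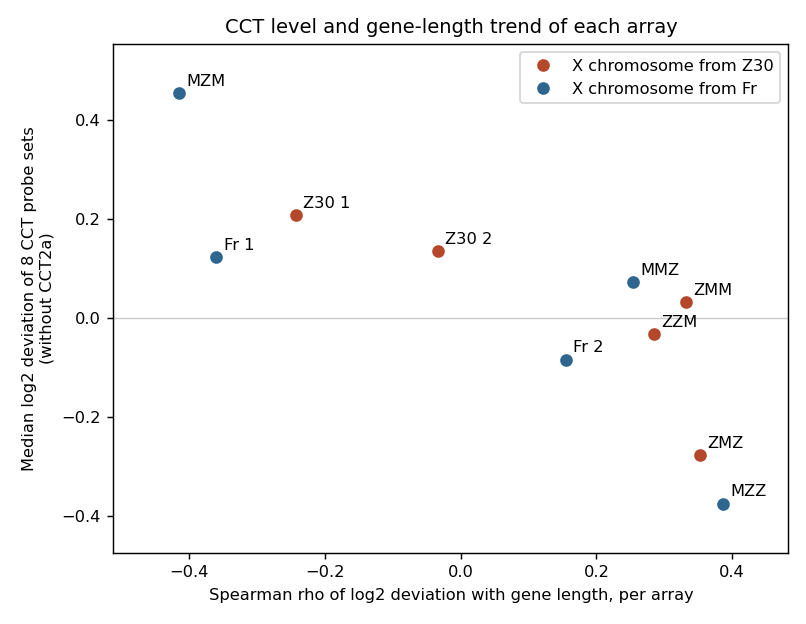
Median log2 deviation of the 8 CCT probe sets other than CCT2a on each array (y axis) against that array's Spearman rho between log2 deviation and gene length (x axis), 1 point per array. MZM, at rho -0.42, has the highest median at 0.45, and MZZ, at rho 0.39, the lowest at -0.37.

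Of 34 listed partner and substrate genes of CCT, 28 had a probe set of their own and 25 passed the filter. None of the 25 was called in limma for the parents or any chromosome, where 0.0358% to 0.0955% of all probe sets were, and none with the batch block, where 0.107% to 6.58% were. At such shares of the unblocked fits a count of 0 is no result about these genes. Prefoldin hands unfolded actin and tubulin to CCT, and its 6 subunit genes had a median log2 difference of 0.00015 with the X chromosome from Z30 and of -0.32 with the third chromosome from Z30. The largest there was that of Pfdn6, encoded on 3L, at -0.63 ± 0.22 (SE, limma adjusted p = 0.815). Over all probe sets the third-chromosome median was 0.040. viaf, a phosducin-like gene whose relatives bind CCT in yeast and mammals, had -0.86 ± 0.32 with the third chromosome (adjusted p = 0.979).

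With X origin the 7 tested of 10 listed tubulin genes had a median difference of -0.037, and the 3 tested of 6 listed actin genes one of 0.11. Act5C, Act42A, Act57B, alphaTub84B and gammaTub23C had no probe set of their own, so these values do not cover them. Act79B had the largest difference of any tested actin gene, -0.43 ± 0.37 between the parents, and had -0.27 ± 0.50 with X origin. Among the tubulins betaTub97EF had the largest, -0.56 ± 0.28 between the parents, and -0.073 ± 0.20 with X origin. Actin and tubulin genes have close copies, so their probe sets may share signal. The 5 tubulin cofactor genes, which take tubulin over after CCT, had a median of 0.0061, and the largest among their differences was 0.85 ± 0.51, that of Tbcd with the second chromosome. Gbeta76C, a WD40 repeat protein of photoreceptors from a class that CCT folds, had 0.33 ± 0.36 between the parents and -0.11 ± 0.25 with X origin. The chaperonin of mitochondria is a separate complex, and 2 of its 5 listed genes were tested. CG11267, listed as Hsp10, had the largest difference, -0.47 ± 0.23 with the third chromosome (limma adjusted p = 0.998). Hsp60A, encoded on X, had -0.033 ± 0.18 with X origin.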

How the data were processed

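Each array gave 1 intensity per probe set on a linear scale, as deposited by the authors. Which tools and settings made them is not given in the sources used here, and the values show that the authors had scaled each array to a common level. Without further scaling, values below the 20th percentile of all arrays (38.8) were raised to it before log2. The 44 control probe sets and those with a mean at or under the 40th percentile were left out, which left 8379. Current symbols were taken from the Release 6 annotation by Entrez identifier, and probe sets with several genes were not named. Differences, always Z30 minus Fr, were tested on these log2 values with limma 3.58.1 (R 4.3.3), using eBayes with a trend in the variance. P-values were adjusted by Benjamini-Hochberg over the 8379, with a threshold of 0.05. The parents were fitted on 4 arrays with 2 residual degrees of freedom, and the 3 chromosome origins together on 10 arrays with 6. The block fit adds a term for Fr 1 and Z30 1 against the rest. Between the parents this leaves 1 residual degree of freedom. The fits and correlations were checked on simulated data. Named are all CCT probe sets, partner and substrate genes with the largest difference of their list, marker genes called in the unblocked fit, the 5 genes most like CCT2a and the 3 measured neighbours on either side. Marker genes called only with the block were not named for that. Hsp60A and the markers given as checks were named after their values were seen. The members and the lists were chosen with earlier results of these data known. Alternatives were another floor, a pseudocount of 50, quantile normalization, no filter, no trend, other sets of arrays and each array left out. The number of arrays limits the precision.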

Additional observations from a re-analysis of the deposited data

Results flagged for a closer look

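In 54 groups of 5 arrays (9 probe sets, 3 chromosomes, 2 origins), 3 held an array whose gap to its nearest neighbour took more than 0.71 of the group's range. Chance marks about 1 in 20 such groups. Among the arrays with the third chromosome from Fr, MZM was far above the others for CCT1 (1731, gap share 0.879) and for CCT3 (784, gap share 0.762). Among the arrays with the second chromosome from Fr, ZMM was far above the others for CCT2a (2915, gap share 0.729). In that group ZMZ, with 1379, also carried the X chromosome from Z30.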

How the results depend on the processing

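The count of CCT probe sets called was 0 in every unblocked limma fit for the parents and each chromosome, with each array left out in turn too (0 to 0). With the array batch as a replicate block it was 1 for the parents and 1 for the first chromosome, CCT2a each time. For the parents it was also 1 without the variance trend, and the call with the first chromosome ended without that trend or without MZM. The first-chromosome call of CCT2a chose the family, and the parents carry the same X chromosomes. These calls, and where they end, are therefore a description and no support. Replicate numbers of the parents follow the array batch: array 1 minus array 2 correlated at 0.642 across probe sets between Z30 and Fr, with only 2 pairs. The number of CCT probe sets correlating with CCT2a was 0, and 1 with the batch mean removed as a replicate block, where the p-value is approximate. With each array left out it was 0 to 1 (1 without MMZ). The 1 was CCT2b each time, a probe set of the same gene. No other subunit passed in any of these settings. CCT2a with the first chromosome from Z30 ranged from 1.45 to 1.93 over single arrays left out. In the 6 lines alone the first-chromosome differences were -0.54 for CCT4, -0.76 for CCT5 and -0.68 for CCT6, over 1.5 times those from 10 arrays and not called. Uncalled differences changed sign as follows, the cause not being tested. In the 6 lines alone, CCT1 had -0.28 and CCT8 -0.031 with the first chromosome. With the second, CCT1 had -0.060, CCT2a -0.50, CCT4 -0.45, CCT5 -0.42, CCT6 -0.44 and CCT7 -0.018. With the third, CCT2b had -0.097, CCT6 -0.56 and CCT7 -0.27. In the larger batch CCT1 had -0.014 with the first chromosome. With single arrays left out, parental differences ran from -0.056 to 0.25 for CCT1, -0.035 to 0.24 for CCT3, -0.10 to 0.38 for CCT4, -0.11 to 0.33 for CCT5 and -0.21 to 0.35 for CCT8. First-chromosome differences ran from -0.14 to 0.24 for CCT1, -0.24 to 0.058 for CCT3, -0.24 to 0.10 for CCT4, -0.61 to 0.0054 for CCT5, -0.28 to 0.037 for CCT6, -0.12 to 0.12 for CCT7 and -0.051 to 0.29 for CCT8. Second-chromosome differences ran from -0.28 to 0.24 for CCT2a, -0.11 to 0.22 for CCT4, -0.051 to 0.49 for CCT5 and -0.03 to 0.28 for CCT6. Third-chromosome differences ran from -0.43 to 0.024 for CCT2a, -0.056 to 0.12 for CCT2b, -0.32 to 0.00057 for CCT4, -0.42 to 0.15 for CCT5, -0.20 to 0.12 for CCT6 and -0.038 to 0.21 for CCT7. Correlations with CCT2a changed sign in the larger batch for CCT3 (-0.030), CCT5 (-0.039) and CCT7 (-0.017), in the 6 lines for CCT5 (-0.16), CCT6 (-0.23) and CCT7 (-0.45), and without the 2 farthest arrays for CCT6 (-0.17). With single arrays left out they ran from -0.016 to 0.68 for CCT1, -0.093 to 0.50 for CCT3, -0.041 to 0.49 for CCT4, -0.26 to 0.29 for CCT5, -0.03 to 0.34 for CCT6 and -0.011 to 0.43 for CCT7.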
